A study of Homo sapiens with 6 samples.

Results

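Oxidative phosphorylation is carried out by 5 protein complexes of the inner mitochondrial membrane, and most of their subunits are encoded in the nucleus. The genes described here are the protein-coding genes whose symbol starts with NDUF and a letter A, B, C, S or V plus a digit, with UQCR, with COX4 to COX8 or with ATP5, together with SDHA, SDHB, SDHC, SDHD, CYC1 and CYCS. Of 60616 genes in the files, 270 carried such a symbol, and 91 of them were protein-coding; 173 pseudogenes were left out. The 91 genes comprised 36 of complex I, 4 of complex II, 10 of complex III, 19 of complex IV, 19 of complex V, the gene of cytochrome c (CYCS) and 2 readthrough genes that join a subunit gene to its neighbour. NDUFA4 and its paralog NDUFA4L2 were counted with complex IV, where the NDUFA4 protein is found, although their symbols carry the prefix of complex I. The rule uses gene names alone and no measured value, but it was chosen with earlier results of these data known.

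The RNA-seq libraries came from 12Z, a human line that was immortalized from endometriotic epithelial cells and serves as a model of endometriosis; its genotype is labelled wild type. The cells grew in DMEM/F12 with 10% charcoal-stripped serum and received for 12 h either frankincense extract, a preparation of Boswellia resin, at 70 ug/mL in DMSO, or the DMSO vehicle. There were 3 libraries in each group, of 22615150 to 27615196 expected counts in all, and their number limits the precision of the values below. All libraries came from 1 cell line, and the labels do not say that the 3 of a group were separate cultures; p-values therefore reflect the variation among these libraries, and that variation may be technical.

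The respiratory chain passes electrons from NADH through complex I, or from succinate through complex II, to coenzyme Q, then through complex III to cytochrome c and through complex IV to oxygen. Complexes I, III and IV pump protons out of the matrix, and complex V, the ATP synthase, lets them flow back to make ATP. Each complex except II also contains core subunits encoded by the mitochondrial genome, so its parts come from 2 genomes, and dedicated assembly factors join them. Endometrial cells draw ATP from this chain as well as from glycolysis. Promoters of many of these nuclear genes are known to be bound by the transcription factors NRF1, GABP (of the ETS family) and YY1.

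Promoter sequence was available from RefSeq (GRCh38.p14) for 71 of the 91 genes, as 250 bases before and 50 bases after the start of the gene. A promoter was counted once per motif where it held an exact match on either strand, and matches of different motifs could overlap. The NRF1 motif was found in 17 of the 71 promoters (23.9%), against 6.28% of all 27305 promoters in the table. The letters CCGGAAG of the ETS motif were found in 20 (28.2%, against 10.7%), and the letters AAGATGGC of the YY1 motif in 11 (15.5%, against 3.03%). A cyclic AMP response element, TGACGTCA, stood in 5 (7.04%, against 1.98%), and TGATGCAA, a form of the element bound by the stress factor ATF4, in 0 (against 0.923%). In all, 39 of the 71 held at least 1 of the NRF1, ETS and YY1 motifs. These shares describe letters and not bound sites. The promoters compared with were not limited to protein-coding or expressed genes, so the contrast is not one with genes of like kind. To show what such promoters look like, the longest exon-free stretches within the 250 bases before the start of 3 complex I genes that fell and of CYCS, the member with the largest rise, are printed 5′ to 3′ on the gene's strand, with motif matches in capitals. The 3 were picked because their stretch holds an NRF1 or ETS match, which the stretches of most members that fell do not. They lie at chr12:95003771-95003947 (minus strand) for NDUFA12, chr3:120596086-120596308 (plus strand) for NDUFB4, chr19:14572067-14572316 (minus strand) for NDUFB7 and chr7:25125362-25125510 (minus strand) for CYCS. NDUFA12 holds 1 NRF1 motif, NDUFB4 holds 2, NDUFB7 holds 1 ETS motif, and the CYCS stretch holds 0 of the 5 motifs, as do most others, so nothing is read from that difference.
NDUFA12: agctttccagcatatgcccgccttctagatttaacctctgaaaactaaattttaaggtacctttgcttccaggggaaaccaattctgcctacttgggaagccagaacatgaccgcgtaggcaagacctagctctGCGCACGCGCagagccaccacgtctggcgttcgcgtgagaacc
NDUFB4: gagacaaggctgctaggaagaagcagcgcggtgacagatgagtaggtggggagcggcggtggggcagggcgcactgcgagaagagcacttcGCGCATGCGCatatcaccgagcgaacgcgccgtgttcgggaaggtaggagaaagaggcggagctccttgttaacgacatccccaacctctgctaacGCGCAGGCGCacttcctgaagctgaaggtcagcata
NDUFB7: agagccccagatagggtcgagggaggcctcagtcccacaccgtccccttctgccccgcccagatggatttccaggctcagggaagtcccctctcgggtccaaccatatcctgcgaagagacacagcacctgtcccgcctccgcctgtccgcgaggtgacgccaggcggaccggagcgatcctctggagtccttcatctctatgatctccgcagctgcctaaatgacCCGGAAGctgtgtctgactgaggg
CYCS: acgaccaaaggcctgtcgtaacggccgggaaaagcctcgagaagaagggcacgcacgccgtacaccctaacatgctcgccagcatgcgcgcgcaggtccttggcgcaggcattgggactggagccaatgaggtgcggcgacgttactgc

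Most of the subunit mRNAs were lower after frankincense. Of the 91 genes, 85 had enough counts to be tested; 57 were lower, 7 were higher and 21 were not called, where a call means a Benjamini-Hochberg adjusted p (over 16719 genes) under 0.05 in the quasi-likelihood test of edgeR. Over all tested genes 31% were called lower and 31.9% higher, so the share of subunit genes called lower (67.1%) was above that background and the share called higher (8.24%) below it. The changes were small: the median log2 fold change was -0.33 over the 85 genes and 0.00 over all genes (-0.0016). The scaling between libraries itself centres most genes near 0. With library size alone the medians were -0.26 and 0.07. Only 4 members fell by at least 2-fold (7.11% of all genes were called and at least that much lower). CYCS alone rose by at least 2-fold (5.14% of all genes). Normalised log2 counts of the groups did not overlap for 58 members that were lower and 8 that were higher, against 33.5% and 34% of all genes. The plot of tested members by complex shows the values. In bulk RNA, fewer cells of a type and less RNA per cell cannot be told apart.

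**Figure D1:**
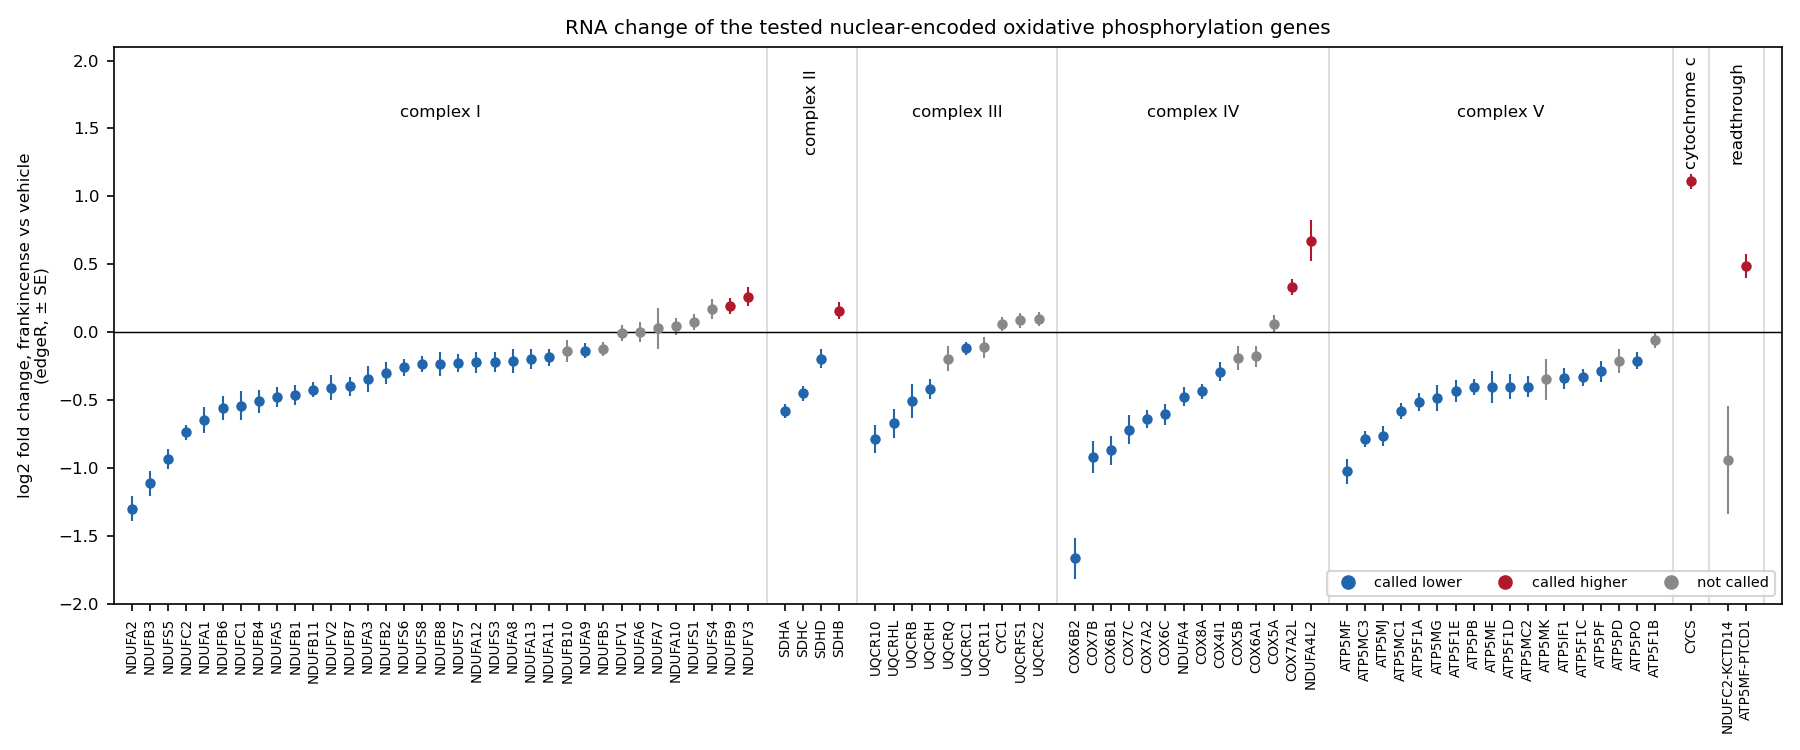
Log2 fold change (frankincense against vehicle, edgeR) of the tested genes, grouped by complex and sorted within it, with 1 gene not drawn; points are estimates, bars ± 1 SE, and colours give the call (blue lower, red higher, grey not called). In each of complexes I, III, IV and V most points lie below 0, and CYCS, at 1.11, is the highest of all.

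The size of the fall rested in part on 1 library. The median over the 85 members of the difference from the vehicle mean was -0.21 and -0.23 log2 units in frankincense replicates 1 and 2 and -0.49 in replicate 3, while the vehicle replicates lay at 0.02, 0.03 and -0.03. All treated libraries were thus below all vehicle libraries, with replicate 3 the lowest, and 77 of the 85 members were lower in replicate 3 than in the mean of replicates 1 and 2. Without that library 52 members were called lower and 11 higher (31.1% and 33.1% of all genes), and the median log2 fold change was -0.20; 51 of the 52 were among the 57. Across genes, which are not independent, the deviation of replicate 3 from replicates 1 and 2 had a rank correlation of 0.30 with gene length. For the other libraries the same correlation ranged from -0.22 to 0.17, each against the rest of its group. The log2 fold change over all tested genes had a rank correlation of 0.04 with length. The subunit genes are short, with a median transcript length of 717 bases against 2158 for all tested genes. Whether length was a cause of the fall was not tested. After a smooth trend on gene length was removed from each library, 48 members were called lower and 9 higher (31.8% and 32.4% of all genes), and the median was -0.20. The 9 calls lost were those of NDUFA3, NDUFA9, NDUFA11, NDUFA12, NDUFA13, NDUFB2, NDUFB8, NDUFS6 and ATP5ME. In the plot of medians by library, frankincense replicate 3 is the lowest library in each complex. Library size scaling gave 47 lower and 11 higher (26.1% and 37.1% of all genes), and a fit with the replicate number as a term 61 and 8 (31.4% and 32%).

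**Figure D2:**
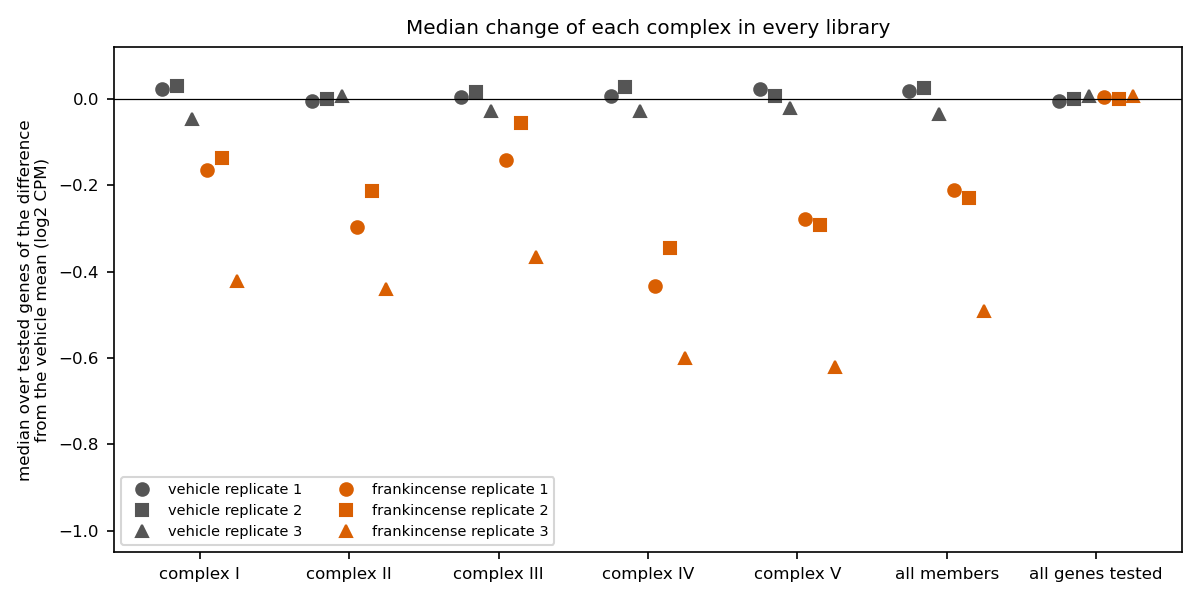
For each complex, for all 85 tested members and for all tested genes, the median over genes of the difference in normalised log2 CPM from the vehicle mean (vertical axis) in each library; grey symbols are vehicle and orange symbols frankincense libraries, and circle, square and triangle are replicates 1, 2 and 3. Over all members the treated libraries lie at -0.21, -0.23 and -0.49. Over all genes every library lies at about 0, where the scaling between libraries centres most genes.

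The unit also bears on the direction. TPM values are scaled to a fixed total, and the share of that total taken by mitochondrially encoded genes was 26.9% ± 0.26 (SD, n = 3) with vehicle and 16.9% ± 0.84 with frankincense, so all other genes were scaled up. On log2(TPM + 1), tested with limma, the median of all genes was 0.20 and that of the members -0.06, a difference of -0.26 between them; 35 members were called lower and 17 higher, where 14.9% and 44.2% of all genes were. All 35 were among the 57. Of the 57, NDUFA8, NDUFA9, NDUFA11, NDUFA13, NDUFB8, NDUFS3, NDUFS7, NDUFS8, SDHD, UQCRC1 and ATP5PO had estimates above 0 on that scale, none of them called. When TPM was rescaled without mitochondrially encoded genes, 49 members were called lower and 9 higher (22.7% and 30.9% of all genes). Values below are on the count scale unless TPM is named, and per-library values are CPM over the TMM-scaled library size (normalised CPM). Comparisons of level between genes use TPM, which is per length.

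The medians of the complexes lay between -0.46 and -0.16. The median log2 fold change was -0.46 over the 14 tested genes of complex IV, -0.40 over the 18 of complex V, -0.32 over the 4 of complex II, -0.23 over the 36 of complex I and -0.16 over the 10 of complex III. Genes called lower numbered 9 of 14, 15 of 18, 3 of 4, 25 of 36 and 5 of 10 in that order, and genes called higher 2, 0, 1, 2 and 0. Over all genes 31% were called lower and 31.9% higher, which is also the background for the counts by kind of subunit below. On log2(TPM + 1) the medians of complexes IV, V and II stayed below 0, at -0.22, -0.20 and -0.08, while those of complexes I and III were both 0.01. Without frankincense replicate 3 the medians of complexes IV, V, II, I and III were -0.38, -0.29, -0.25, -0.16 and -0.09, and after the length correction -0.35, -0.34, -0.33, -0.12 and -0.08. Without that library 4 genes of complex I and 1 of complex III were called higher, where 33.1% of all genes were. These medians describe genes, which are not replicates, and no difference between complexes was tested.

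Complex I takes electrons from NADH through a chain of iron-sulfur clusters in its peripheral arm. Of its 7 tested nuclear core subunits, which carry the flavin and the clusters, 4 were lower: NDUFV2 (-0.41), NDUFS8 (-0.23), NDUFS7 (-0.23) and NDUFS3 (-0.22 log2). Among the core subunits that were not called, NDUFV1, the flavin-bearing NADH-binding subunit, was at -0.01 ± 0.06 (SE) and NDUFS1 at 0.07 ± 0.06. The 29 accessory subunits, which surround the core, had 21 genes lower and 2 higher, with a median of -0.26.

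The 3 largest falls in complex I were all of accessory subunits. NDUFA2, a small subunit of the peripheral arm (ENSG00000131495, chromosome 5, 140638740 to 140647785 in GRCh38), had 42.2, 41.5 and 38.7 normalised CPM in the vehicle libraries and 18.4, 17.5 and 13.7 with frankincense. The groups were far apart; the log2 fold change was -1.30 ± 0.09 (SE, adjusted p of 4.3e-08, edgeR), a level 2.47 times lower. NDUFB3, a subunit of the membrane arm, went from 49.0, 50.5 and 46.0 to 25.1, 23.6 and 18.6, a log2 change of -1.11 ± 0.09. NDUFS5, which lies on the side of the intermembrane space, was the complex I member with the highest TPM with vehicle (441 ± 9.2, against a median of 147 over the complex) and went from 129, 127 and 125 to 73.9, 66.6 and 58.4 normalised CPM, a change of -0.93 ± 0.07. For each of these 3 genes every treated library lay below every vehicle library, with frankincense replicate 3 the lowest.

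Of the accessory families, the 12 NDUFA genes of complex I had 9 called lower, among them NDUFA1 (-0.65) and NDUFA5 (-0.48), and a median of -0.21. NDUFA6, NDUFA7 and NDUFA10 were not called, at 0.00 ± 0.07, 0.03 ± 0.15 and 0.04 ± 0.06. The 11 NDUFB genes, all of the membrane arm, had 8 called lower and a median of -0.40. NDUFA9, NDUFA8, NDUFA11, NDUFA12, NDUFA13, NDUFB8 and NDUFS3 changed by 0.24 log2 or less, and each lost its call when 1 or more of the libraries was left out; for NDUFA9 (-0.14) this was so for any of the 6.

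Complex I also held 2 genes that rose. NDUFV3, a short accessory subunit of the NADH-binding module, was the complex I gene with the lowest TPM (16.3 with vehicle); it went from 39.9, 40.2 and 40.0 to 51.5, 49.9 and 42.5 normalised CPM, a log2 change of 0.26 ± 0.07 (adjusted p of 0.0046, edgeR). NDUFB9, a membrane arm subunit, went from 91.1, 88.6 and 86.5 to 106, 104 and 93.9, a change of 0.19 ± 0.06 (adjusted p of 0.0079, edgeR). In both the groups did not overlap, and frankincense replicate 3 was the treated library closest to the vehicle.

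Complex II, succinate dehydrogenase, is also an enzyme of the tricarboxylic acid cycle and has no mitochondrially encoded subunit. Its 4 genes did not move together. SDHA, the flavoprotein that oxidises succinate, had 162.8, 161.3 and 163.1 normalised CPM with vehicle and 105, 107 and 113 with frankincense, a log2 change of -0.58 ± 0.05 (adjusted p of 1.4e-07, edgeR), and here frankincense replicate 3 was the highest treated library. SDHB, the iron-sulfur subunit that binds SDHA, had 91.0, 87.8 and 83.6 against 104, 101 and 87.4, with groups that overlapped through replicate 3, and a change of 0.16 ± 0.06. That call was marginal (adjusted p of 0.046, edgeR): leaving out any vehicle library, or frankincense replicate 1 or 2, raised the p to as much as 0.21, and without frankincense replicate 3 it was 5.5e-05.

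The TPM of SDHA relative to SDHB was 102%, 108% and 118% in the vehicle libraries and 60.4%, 63.6% and 62.3% in the treated ones. The means were 109% ± 8.2 and 62.1% ± 1.6 (SD, n = 3), and the groups did not overlap; the exact two-sided permutation test of 3 libraries against 3 gave p of 0.10, the smallest it can give, for this ratio, which was chosen after its values were seen. Named pseudogenes of SDHA held 31.0% of the reads assigned to SDHA and these pseudogenes with vehicle and 35.9% with frankincense, so the division of reads among the copies makes the level of SDHA uncertain. With the pseudogene counts added to SDHA, its log2 change was -0.48, against -0.58 without them. The membrane anchors both fell: SDHC from 95.7, 98.0 and 97.5 to 72.0, 75.8 and 65.3 (-0.45 ± 0.06), and SDHD from 94.1, 89.8 and 101 to 84.8, 90.3 and 73.5 (-0.20 ± 0.07), the latter with overlapping groups and a call lost without vehicle replicate 1 or 3 or frankincense replicate 3.

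Complex III transfers electrons from reduced coenzyme Q to cytochrome c. Its nuclear catalytic subunits were not called. CYC1, the heme-bearing cytochrome c1, had 92.7, 91.8 and 94.6 normalised CPM with vehicle and 94.7, 103 and 93.6 with frankincense (0.06 ± 0.05 log2), and UQCRFS1, the Rieske iron-sulfur protein, changed by 0.09 ± 0.05. The core proteins UQCRC1 and UQCRC2, which face the matrix, were at -0.12 ± 0.05, called by a narrow margin (adjusted p of 0.049, edgeR; not called when any library but frankincense replicate 2 was left out), and 0.09 ± 0.05, not called. On log2(TPM + 1) CYC1, UQCRFS1 and UQCRC2 were called higher, by 0.33, 0.32 and 0.45.

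Besides UQCRC1, the genes of complex III called lower were small subunits, of which 4 of 6 were lower, with a median of -0.46. UQCR10 went from 74.0, 71.7 and 66.2 to 45.2, 44.1 and 33.3 normalised CPM, a log2 change of -0.79 ± 0.10 (adjusted p of 0.00012, edgeR). UQCRB, which lies near a coenzyme Q site, went from 180, 177 and 171 to 136, 137 and 97.7 (-0.51 ± 0.12). UQCRH, the hinge protein that helps cytochrome c1 bind cytochrome c, had the highest TPM of the complex (414 with vehicle) and went from 128, 133 and 130 to 106, 103 and 83.9 (-0.42 ± 0.08). None of these 3 had overlapping groups, and frankincense replicate 3 was the lowest library in each. UQCRHL, a near copy of UQCRH, went from 10.7, 11.1 and 10.2 to 6.58, 7.66 and 5.87 (-0.67 ± 0.11); its TPM was 1.53% of that of UQCRH with vehicle and 1.34% with frankincense, and reads shared with UQCRH make its level uncertain. UQCRQ (-0.20 ± 0.09) and UQCR11 (-0.11 ± 0.08) were not called.

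Complex IV, cytochrome c oxidase, has its catalytic center in mitochondrially encoded subunits, around which the nuclear ones are arranged. Of the 11 nuclear subunits expressed in most tissues, 8 were lower and 0 higher, with a median of -0.47. COX7B went from 107, 104 and 109 to 65.1, 58.9 and 45 normalised CPM, a log2 change of -0.92 ± 0.12 (adjusted p of 0.0003, edgeR), and COX6B1, which lies at the dimer interface, from 119, 121 and 110 to 70.9, 67.9 and 51.8 (-0.87 ± 0.11). COX7C (-0.72), COX6C (-0.61), COX8A (-0.44) and COX4I1 (-0.29) also fell; COX8A went from 122.7, 122 and 114 to 88.9, 93.3 and 82.9, and COX4I1, a subunit that joins early in assembly, from 150, 153 and 146 to 135, 124 and 108. COX6A1, with the highest TPM of the complex (532 with vehicle), had 167, 173 and 158 against 158, 153 and 128 and was not called (-0.18 ± 0.07, adjusted p of 0.052, edgeR). COX5B (-0.19 ± 0.09) and COX5A (0.06 ± 0.07) were not called either.

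Several subunits of complex IV exist in tissue forms or have paralogs, and members of the same pair could change in opposite directions. NDUFA4, a subunit of the complex, went from 77.8, 80.0 and 81.8 to 58.9, 63.4 and 50.2 normalised CPM (-0.47 ± 0.07), while NDUFA4L2, its paralog that is known to be induced by hypoxia, went from 3.70, 3.40 and 4.45 to 7.17, 5.91 and 5.33 (0.67 ± 0.15, adjusted p of 0.0012, edgeR). The TPM of NDUFA4L2 was 4.09% ± 0.51 of that of NDUFA4 with vehicle and 9.44% ± 0.95 with frankincense (SD, n = 3). COX7A2 went from 84.2, 89.7 and 85.4 to 57.8, 58.9 and 49.6 (-0.64 ± 0.07), while COX7A2L, a related protein that holds complexes III and IV together in supercomplexes, went from 84.0, 85.2 and 85.3 to 110, 113 and 96.8 (0.33 ± 0.06, adjusted p of 0.00021, edgeR). The TPM of COX7A2L was 24.3% ± 0.92 of that of COX7A2 with vehicle and 51.7% ± 4.0 with frankincense. The second pair was chosen after its values were seen. Neither ratio overlapped between groups; in each the exact two-sided permutation test of 3 libraries against 3 gave the smallest p possible, 0.10.

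COX6B2, the testis form of COX6B1, was present at a low level and fell more than any other member, from 13.6, 12.7 and 11.1 to 5.09, 3.42 and 3.20 normalised CPM, a log2 change of -1.67 ± 0.15 (adjusted p of 8.4e-07, edgeR). Its TPM was 3.18% of that of COX6B1 with vehicle and 2.23% with frankincense. The remaining tissue forms were not detectable at this depth: COX4I2, COX6A2, COX7A1 and COX7B2 had 0 counts in every library, and COX8C had 1 count in vehicle replicate 2 and 1 in frankincense replicate 2. A count of 0 in a library allows up to 0.109 to 0.133 CPM, depending on the library; only counting error enters this limit. The plot of single members shows these pairs by library.

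**Figure D3:**
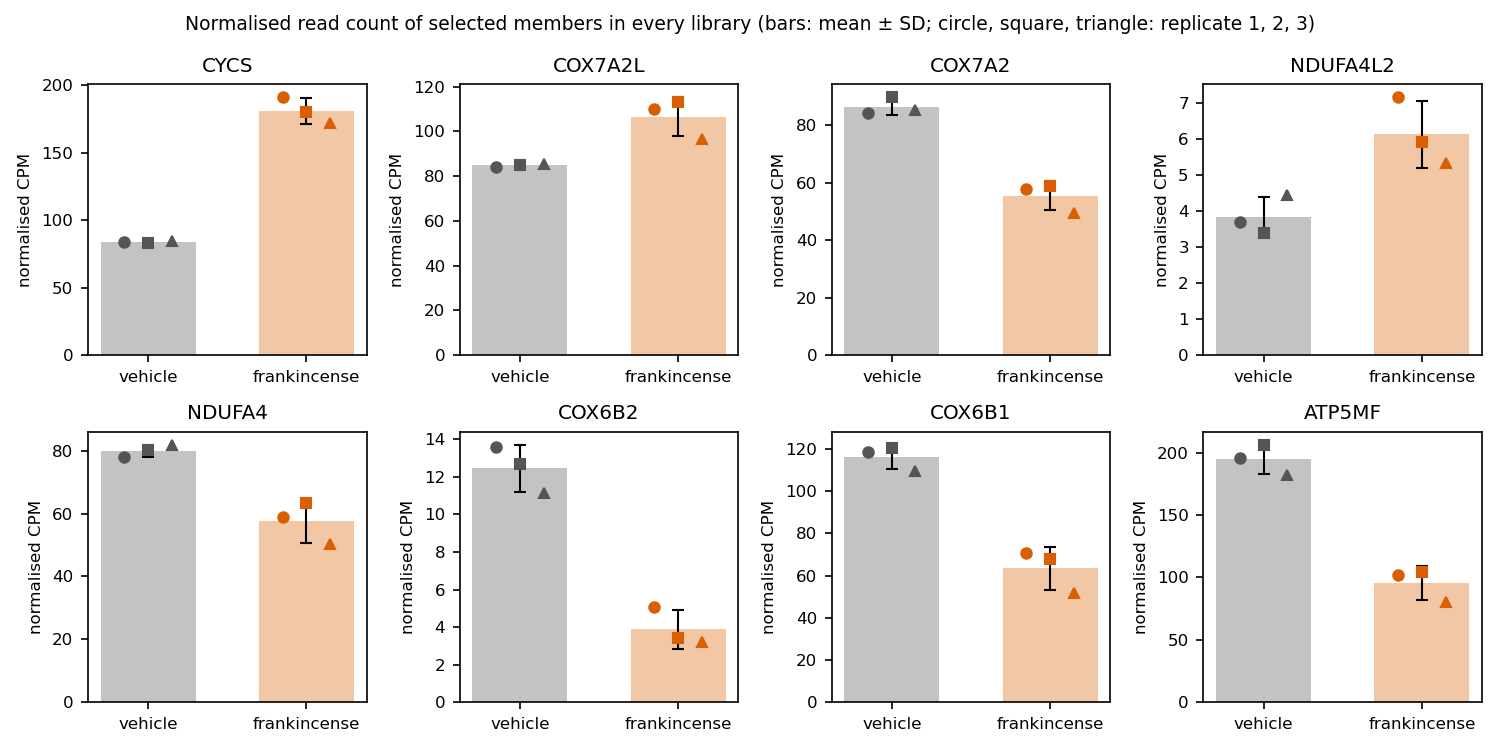
Normalised CPM (vertical axes, each starting at 0) of CYCS, of 3 pairs of complex IV genes and of ATP5MF in every library; bars are group means ± SD of 3 libraries, and symbols are single libraries. CYCS, COX7A2L and NDUFA4L2 are higher in every treated library than in any vehicle library, and COX7A2, NDUFA4, COX6B1, COX6B2 and ATP5MF are lower.

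Complex V consists of the F1 head, which makes ATP, and a membrane part with a ring of c subunits that turns as protons pass. It had 15 of 18 tested genes lower and 0 higher; all 18 estimates were below 0, from -1.03 to -0.06, and on log2(TPM + 1) ATP5F1B was called higher. In the head, ATP5F1A, the alpha subunit, was at -0.51 ± 0.07, ATP5F1E at -0.43 ± 0.08, ATP5F1D at -0.40 ± 0.09 and ATP5F1C at -0.33 ± 0.06, all called. ATP5F1B, the catalytic beta subunit, was not called (-0.06 ± 0.06), with 402, 390 and 396 normalised CPM against 354, 391 and 393.

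The c ring protein is encoded by 3 genes that yield the same mature protein, and all 3 were lower: ATP5MC3 by the most (-0.79 ± 0.06, from 146, 146 and 145 to 85.2, 90.7 and 77.2 normalised CPM), ATP5MC1 at -0.58 ± 0.06 and ATP5MC2, the one with the highest TPM, at -0.40 ± 0.08. Of the peripheral stalk, which holds the head still, ATP5PB (-0.40), ATP5PF (-0.29) and ATP5PO (-0.21, not called without vehicle replicate 2) were lower and ATP5PD (-0.21, adjusted p of 0.051, edgeR) was not called. Among the small membrane subunits, ATP5MF had the highest TPM of all 91 genes, 1237 ± 35 (SD, n = 3) with vehicle, and went from 196, 206 and 182 to 102, 105 and 80.0 normalised CPM, a change of -1.03 ± 0.10 (adjusted p of 6.6e-06, edgeR). ATP5MJ went from 52.6, 49.7 and 50.9 to 30.1, 33.1 and 26.9 (-0.77 ± 0.07), and ATP5MG (-0.48) and ATP5ME (-0.40) were also lower, while ATP5MK was not called (-0.35 ± 0.15). ATP5ME was at -0.25 without frankincense replicate 3 and at -0.12, not called, after the length correction. ATP5MK was at -0.18 and called without that replicate (adjusted p of 0.0071, edgeR), and it was called with DESeq2 (adjusted p of 0.011). ATP5IF1, the inhibitor that keeps the enzyme from running in reverse, went from 163.1, 166 and 151 to 134, 135 and 109 (-0.34 ± 0.08). ATP5MGL had 1 count in 1 vehicle library and was not tested.

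Cytochrome c, the protein that carries electrons from complex III to complex IV and that triggers caspase activation when released to the cytosol, stood apart from the complexes. CYCS (ENSG00000172115, chromosome 7, 25120091 to 25125361 in GRCh38) had 83.9, 83.0 and 84.7 normalised CPM with vehicle and 191, 180 and 172 with frankincense, a log2 fold change of 1.11 ± 0.05 or 2.16-fold (adjusted p of 3.2e-10, edgeR). No treated library came near the vehicle range, and the change was 1.16 without frankincense replicate 3. In TPM it rose from 80.8 ± 2.1 to 188 ± 5.6 (SD, n = 3). Its TPM was 75.3% ± 0.98 of that of CYC1, the subunit of complex III that hands electrons to it, with vehicle and 140% ± 5.3 with frankincense, a ratio chosen after its values were seen. Named pseudogenes of CYCS held under 1% of the reads assigned to it and to them (0.841% with vehicle and 0.372% with frankincense). Of the readthrough genes, ATP5MF-PTCD1 rose (0.49 ± 0.09) while ATP5MF fell; since they share exons, reads between them were divided by the authors' estimation and both levels are uncertain in that respect. NDUFC2-KCTD14 was near the limit of detection and was not called (-0.94 ± 0.40, adjusted p of 0.05, edgeR).

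Across the 85 members the log2 fold change had Spearman's rho of 0.37 with gene length and -0.32 with TPM in vehicle cells, so shorter and more abundant mRNAs were at lower values. The points share the same 6 libraries, and length and level are measured in them.

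The nuclear assembly factors build the complexes without being part of them. Of 63 tested, 31 were higher and 9 lower, where 31.9% and 31% of all genes were, with a median log2 fold change of 0.23. On log2(TPM + 1) the counts were 46 and 4, on a scale that called 44.2% of all genes higher and 14.9% lower. Without frankincense replicate 3 they were 37 and 6. Complex I had 10 of 19 factors higher and 1 lower (median 0.31), complex III 5 of 9 and 0 (0.23), complex IV 14 of 26 and 6 (0.24), complex V 1 of 5 and 0 (0.12; 2 higher without frankincense replicate 3) and complex II 1 of 4 and 2 (-0.14; 0.07 on log2(TPM + 1)). Those with the smallest adjusted p in each direction were, for complex I, NDUFAF5 (0.68 ± 0.08), which modifies NDUFS7, and DMAC2 (-0.15 ± 0.06). That single lower call went to 0 when any 1 vehicle library, or frankincense replicate 2 or 3, was left out. It also went to 0 with DESeq2, with library size scaling and without a count filter. On log2(TPM + 1), as deposited or rescaled without mitochondrially encoded genes, 0 were called lower too. For complex II they were SDHAF3 (0.36 ± 0.11; 0 factors of complex II were called higher without vehicle replicate 3 or frankincense replicate 1) and SDHAF2 (-0.40 ± 0.10), the factor that attaches the flavin to SDHA. For complex III TTC19 rose (0.35 ± 0.06) and for complex V TMEM242 (0.38 ± 0.07). For complex IV they were COA7 (0.97 ± 0.07, adjusted p of 3.8e-08, edgeR) and PET100 (-1.09 ± 0.11, adjusted p of 1.3e-06, edgeR). No difference between subunits and assembly factors was tested as such; the plot by complex sets their values side by side.

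**Figure D4:**
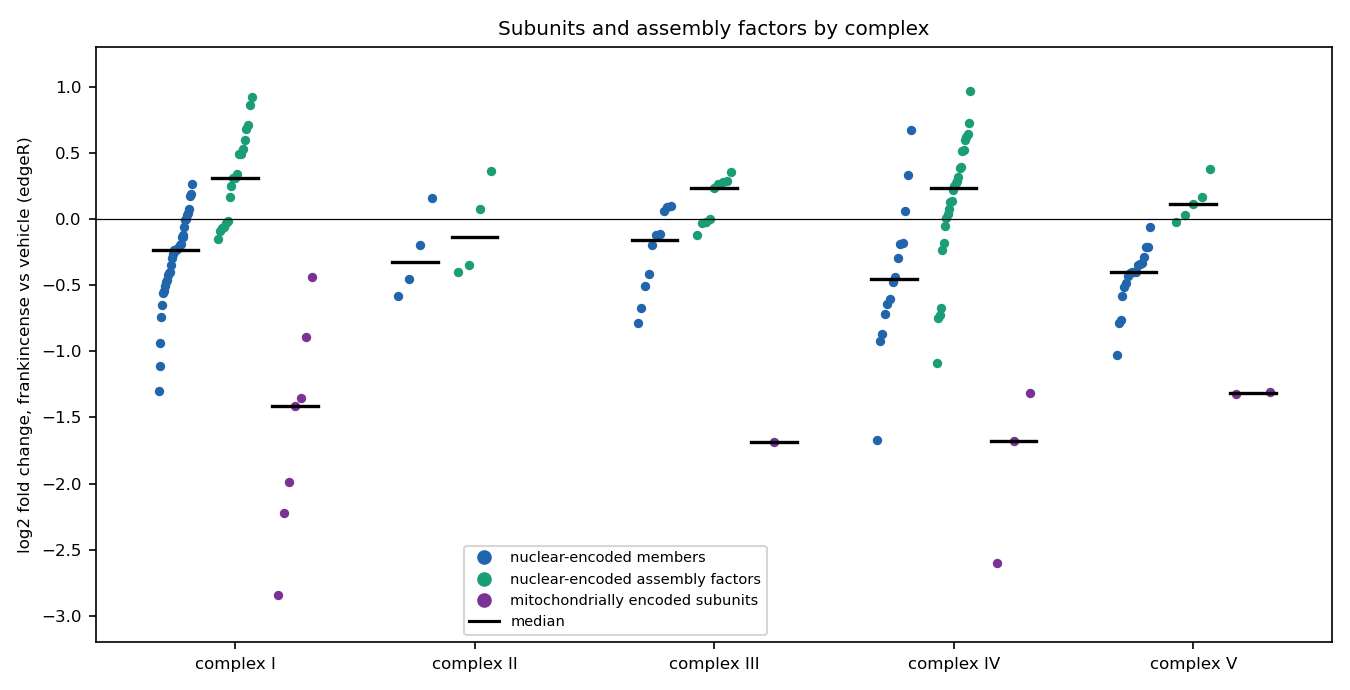
Log2 fold change (frankincense against vehicle, edgeR) of tested nuclear-encoded genes of each complex (blue), of its assembly factors (green) and of its mitochondrially encoded subunits (purple); each point is a gene and black bars are medians. In complexes I, III, IV and V the medians of the assembly factors (0.31, 0.23, 0.24 and 0.12) lie above 0 and those of both kinds of subunit below.

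The subunits encoded by the mitochondrial genome were lower in all 13 genes, with log2 fold changes from -2.84 to -0.44 and medians of -1.42 in complex I, -1.68 in complex III (1 gene), -1.68 in complex IV and -1.32 in complex V. Summed over the subunits of a complex, their TPM was 0.469 times the vehicle level in complex I, 0.369 in complex III, 0.328 in complex IV and 0.477 in complex V. The summed TPM of the nuclear members went from 5517 ± 109 to 5101 ± 238 (SD, n = 3) in complex I, from 3744 ± 40 to 3264 ± 209 in complex IV and from 6049 ± 82 to 5096 ± 396 in complex V, and these groups did not overlap. In complex II (488 ± 14 to 482 ± 22) and complex III (1678 ± 27 to 1606 ± 106) they overlapped. Such sums weigh abundant genes most and do not show a fall of every member. In complex V, ATP5MF held 1237 TPM with vehicle and changed by -0.81 on log2(TPM + 1). In complex I, NDUFS5 held 441 and changed by -0.69. The level of ATP5MF is also uncertain, since it shares exons with ATP5MF-PTCD1. With TPM rescaled without mitochondrially encoded genes the nuclear sums were 0.813, 0.868, 0.842, 0.767 and 0.741 times the vehicle level in complexes I to V, against 0.925, 0.986, 0.957, 0.872 and 0.842 before rescaling.

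The mean TPM of a mitochondrially encoded subunit was 87.3 ± 0.60 times that of a tested nuclear member in complex I with vehicle and 44.3 ± 2.4 times with frankincense (SD, n = 3). In complex III the ratio went from 86.1 ± 0.59 to 33.3 ± 3.2, in complex IV from 114 ± 0.71 to 43.1 ± 3.4 and in complex V from 90.8 ± 0.39 to 51.6 ± 4.2. The groups were far apart in each. The rescaling of TPM does not touch such a ratio within a library, and the smallest p that 3 libraries against 3 can give in an exact two-sided permutation test is 0.10.

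Of genes that supply the chain, most enzymes of the tricarboxylic acid cycle and coenzyme Q synthesis were not called on the count scale. In either direction 62.9% of all genes were called (31.9% higher and 31% lower). Of 10 tested transcription regulators of oxidative phosphorylation genes, 6 were higher and 1 lower, a called share near that of all genes. GABPB1, a subunit of the ETS factor GABP, had the smallest adjusted p among the rises (0.82 ± 0.06 log2). The largest rise in the list, of another gene, was 1.58. YY1 fell by 0.24 ± 0.05 on the log2 scale. NRF1 (-0.17 ± 0.08) and GABPA, the DNA-binding subunit of GABP (0.01 ± 0.06), were not called. Regulators called lower were 2 without vehicle replicate 2 or frankincense replicate 1. Of 13 enzymes of the tricarboxylic acid cycle, which provides NADH, 1 was higher (IDH3A, 0.60 ± 0.06) and 3 lower, with the smallest adjusted p for DLD (-0.25 ± 0.05), and 9 not called; 2 were higher without frankincense replicate 1 and 3 without frankincense replicate 3. Of 11 genes of coenzyme Q synthesis, 1 was higher (COQ5, 0.27 ± 0.07) and 2 lower, with the smallest adjusted p for COQ8A (-0.86 ± 0.08), and 8 not called. Without vehicle replicate 1 or 2, or frankincense replicate 1 or 2, 1 gene of this list was lower, and without frankincense replicate 3, 3 were higher. The medians of these lists were 0.24, -0.02 and 0.04. On log2(TPM + 1), 7 of the 13 cycle enzymes were called higher and 0 lower. Of the 11 coenzyme Q genes 6 were higher and 1 lower there, and of the 10 regulators 7 and 0. That scale called 44.2% of all genes higher and 14.9% lower. With library size scaling the cycle enzymes had 4 higher and 1 lower, and the coenzyme Q genes 2 and 1 (37.1% and 26.1% of all genes). On the TPM scale the means of YY1 (53.5 with vehicle and 68.0 with frankincense), DLD (48.59 and 50.02) and the assembly factor DMAC2 (34.6 and 37.2) were higher with frankincense, against their direction on the count scale.

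Markers were checked against the label. Keratins 8, 18 and 19 and the mesenchymal VIM and COL1A1 were abundant, while the epithelial CDH1 was below 0.5 TPM in every library. Summed epithelial markers ranged from 1610 to 1646 TPM with vehicle and from 1383 to 1438 with frankincense, with 5 of 8 tested lower and 2 higher, MUC1 having the smallest adjusted p among the falls (-1.39) and KRT7 among the rises (0.94), where 31% of all genes were called lower and 31.9% higher. Summed mesenchymal and stromal markers ranged from 4186 to 4301 and from 3245 to 3549, with 6 of 9 lower, led by DCN (-1.76), and 2 higher (1 without vehicle replicate 1 or 2), led by MME (0.64). Among the immune markers, PTPRC, CD3E and LYZ were below 0.5 TPM throughout, and CD14 fell (-2.96); the sums were 30.3 to 34.1 and 35.1 to 64.0 TPM, nearly all CD68. Endothelial markers summed to at most 0.27 TPM. The part of these marker changes in the changes of the subunit genes was not tested.

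The direction of the median was the same in each complex under every way of processing but 1. The plot by setting gives these medians; on log2(TPM + 1) those of complexes I and III lie just above 0.

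**Figure D5:**
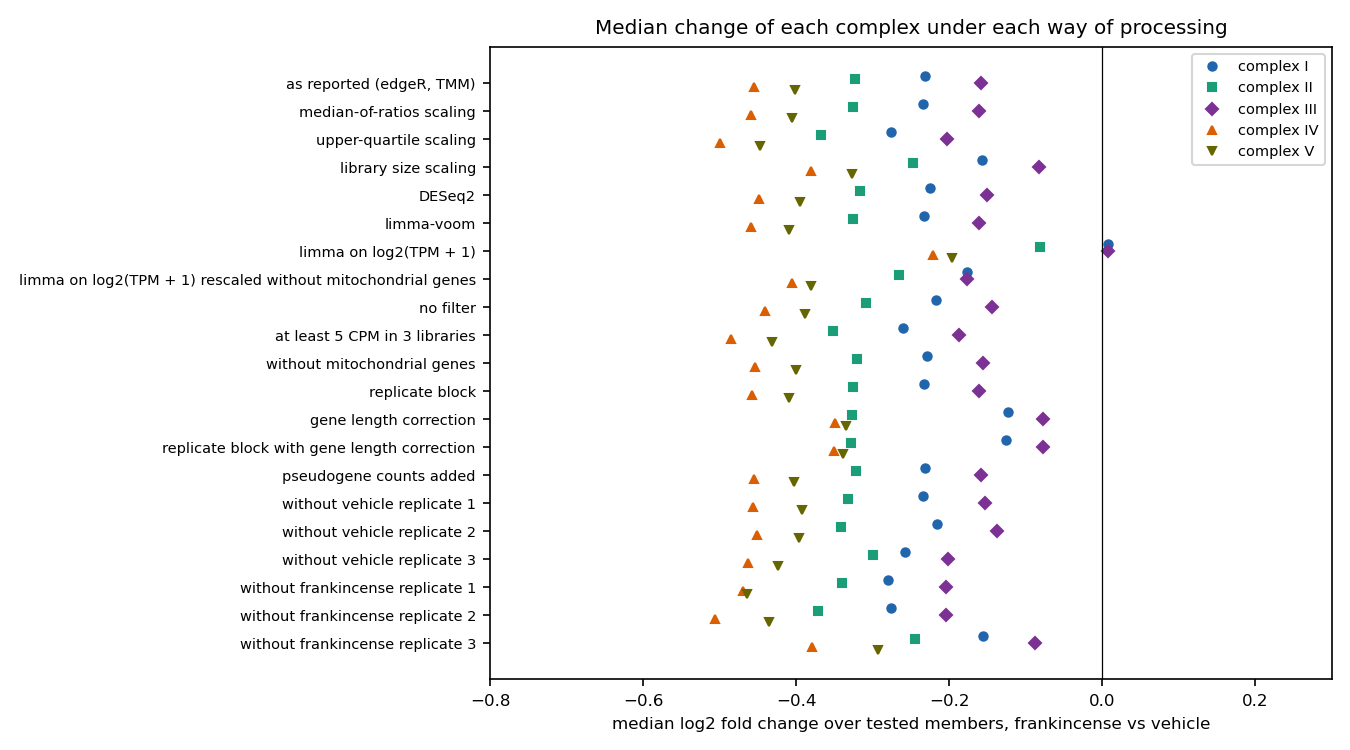
Median log2 fold change (frankincense against vehicle) over the tested members of each complex (symbols) under each way of processing the data (rows). Complexes IV and V lie to the left of complexes I and III in every row, and on log2(TPM + 1) complexes I and III both lie at 0.01.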

How the data were processed

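RNA of 6 libraries of 12Z cells, 3 per group, was sequenced. STAR, RSEM 1.3.1 and GRCh38 are named in the submitters' processing notes; for the STAR version, annotation and read filters, nothing is given in the sources used. The authors' expected counts, per the file headers, estimate how many reads belong to a gene and divide shared reads among genes. The deposited TPM values are scaled to a fixed total per library by the authors, per the file headers, and the deposited FPKM values, scaled by gene length and depth, were not used. Since no strand-keeping kit is named, reads of overlapping or antisense genes cannot be told apart.

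Rounded expected counts entered edgeR 4.0.16 under R 4.3.3 (filterByExpr, TMM, glmQLFit with robust estimation, glmQLFTest, two-sided, Benjamini-Hochberg adjustment over 16719 genes, called at adjusted p under 0.05), after a check on simulated data. The SE is the absolute log2 fold change divided by the square root of F. TPM was tested with limma 3.58.1 on log2(TPM + 1), which understates changes of low genes. Symbols came from a gene name table (60419 of 60616 identifiers) and gene types and coordinates from GENCODE 29 (58385). Other alternatives were DESeq2 1.42.0, limma-voom, other scalings and filters, a gene length correction (lowess, span 0.3), pseudogene counts added to their parent gene, a replicate block and leaving out each library. No pair of replicates agreed within sampling noise: chi-square over its degrees of freedom ranged from 3.86 to 4.44 for pairs without frankincense replicate 3 and was 12.1 and 14.0 for pairs with it. None was therefore merged as a repeat of another library; whether they are separate cultures is not shown by this.

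Genes given with values in every library are, per complex, the 3 called members with the lowest and the 2 with the highest change, the member with the highest TPM, and a fixed set of single genes and isoform pairs; of each list of other genes, the called gene with the smallest adjusted p in each direction. ATP5F1B was added after its values were seen. The members and lists were chosen with earlier results of these data known. Values of 1 member and of 1 marker gene are not reported here; both are included in the counts and medians.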

Additional observations from a re-analysis of the deposited data

How the results depend on the processing

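The count of members called lower stayed within 1.5 times of the 57 reported, at 47 to 63, under every alternative but the test of log2(TPM + 1), which gave 35 lower and 17 higher. On that scale the median log2 fold change was -0.061 over all members, 0.00670 in complex I, -0.081 in complex II, 0.00738 in complex III, -0.22 in complex IV and -0.20 in complex V. Of all genes 14.9% were called lower there and 44.2% higher. Called members were 11 lower and 7 higher in complex I, 3 higher in complex III and 1 higher in complex V. COX6A1 and SDHD turned to 0.064 and 0.054. Part of this follows from the scale itself, which moved the median of all genes to 0.20. With library size scaling alone 11 members were higher, 3 of them in complex III; TPM rescaled without mitochondrial genes gave 1 higher in complex III. The single rise in complex II, SDHB, was lost (0 higher) with upper-quartile scaling, DESeq2, limma-voom and a minimum of 5 CPM in 3 libraries. Rescaling TPM without mitochondrial genes moved the ratios of summed TPM to 0.813, 0.868, 0.842, 0.767 and 0.741 in complexes I to V.

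Leaving out 1 library at a time gave 48 to 60 members lower and 6 to 11 higher, with the 11 without frankincense replicate 3, and medians of -0.38 to -0.20. Genes called higher were 2 to 4 in complex I, 0 to 1 in complex II and 0 to 1 in complex III, and the ratio of summed TPM in complex II was 0.966 to 1.01, above 1 without frankincense replicate 3. With 2 libraries in a group the spread was estimated over both groups. The causes of the other shifts were not tested.

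With a replicate block, 61 members were called lower and 8 higher. The labels do not say whether equal numbers mark paired libraries. The correlation of deviations between same-numbered libraries was 0.050, 0.101 and 0.035, and every library correlated best with its own number. Between libraries of unlike number it was -0.070 to 0.021. Correlations this small do not settle whether the libraries are paired. The replicate block together with the length correction gave 49 lower and 9 higher. Depth limits the genes near 0, among them COX8C, ATP5MGL and NDUFC2-KCTD14.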
